A study of Mus musculus with 6 samples.

Results

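Blood and lymphatic endothelial genes were examined in adipose tissue of cavin-3 KO and WT mice, as 40 genes named for the cells that line blood capillaries, veins, arteries and lymph vessels. A gene was measured here where a probe set was annotated with its symbol alone, and the probe set with the highest mean signal was used for each gene. This gave 39 of the 40 genes, of 19937 genes in all, each from 1 probe set. Selp, which encodes P-selectin, was not analysed here. The KO mice were homozygous for an allele in which a lacZ/neo cassette replaces the full-length cavin-3 gene, made from C57BL/6N ES cells, and the WT mice were their litter mates. By the methods, the mice of every experiment but those on embryonic fibroblasts came from the Boston colony, which descends from 1 ES cell clone. Every mouse was 10 weeks old, was kept on standard chow and had fasted for 6 hours. RNA of the whole tissue from 3 KO and 3 WT mice was hybridised to 6 Affymetrix Mouse Gene 1.0 ST arrays, and the values are RMA intensities, given below as log2 intensity. The labels do not name the fat depot.

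Endothelial cells form the inner wall of every vessel. In fat they hand fatty acids from the blood to adipocytes, and with adipocytes and smooth muscle cells they are among the cells richest in caveolae, the membrane pits that cavins coat. Signals of the VEGF, angiopoietin, BMP and Notch pathways keep these cells in place and give them their capillary, venous, arterial or lymphatic identity, and factors of the ETS and SOX families hold that identity in the nucleus. In RNA of whole tissue, fewer endothelial cells and less RNA per endothelial cell cannot be told apart.

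Promoter sequences at RefSeq starts on GRCm38.p6 were at hand for 24 of the 40 genes (30 windows), and 4 are shown. Robo4 and Emcn are given because Robo4 did not overlap between the genotypes and Emcn had the largest mean difference of the 39 genes, Cldn5 because its mean was the furthest below WT, and Flt4 because its difference was the largest of the lymphatic genes. Each run holds the 250 bases before the start of the gene, on its own strand (plus for all 4). Capitals mark AGGAAG or its other strand CTTCCT, a core letter pattern of ETS factors such as the member Erg.
Robo4 (chr9:37401722-37401971): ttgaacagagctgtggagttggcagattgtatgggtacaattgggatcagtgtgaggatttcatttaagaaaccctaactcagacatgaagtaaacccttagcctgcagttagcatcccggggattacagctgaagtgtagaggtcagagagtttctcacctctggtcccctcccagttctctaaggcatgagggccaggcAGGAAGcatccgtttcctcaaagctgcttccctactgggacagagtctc
Emcn (chr3:137340828-137341077): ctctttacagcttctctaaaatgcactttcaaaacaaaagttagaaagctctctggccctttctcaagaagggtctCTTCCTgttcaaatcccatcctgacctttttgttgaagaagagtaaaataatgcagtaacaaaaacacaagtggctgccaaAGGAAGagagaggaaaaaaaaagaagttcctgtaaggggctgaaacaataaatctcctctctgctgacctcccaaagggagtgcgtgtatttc
Cldn5 (chr16:18776597-18776846): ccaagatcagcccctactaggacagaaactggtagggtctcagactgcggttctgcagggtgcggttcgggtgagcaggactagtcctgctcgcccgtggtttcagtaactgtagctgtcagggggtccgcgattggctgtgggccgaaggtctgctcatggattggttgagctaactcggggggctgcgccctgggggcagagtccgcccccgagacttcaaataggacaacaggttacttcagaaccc
Flt4 (chr11:49609429-49609678): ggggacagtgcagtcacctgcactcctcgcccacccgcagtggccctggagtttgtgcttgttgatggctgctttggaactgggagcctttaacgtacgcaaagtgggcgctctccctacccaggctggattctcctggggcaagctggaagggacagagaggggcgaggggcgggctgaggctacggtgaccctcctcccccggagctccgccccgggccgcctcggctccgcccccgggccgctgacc
The pattern begins 49 bases before the start of Robo4 and 174 and 93 bases before that of Emcn, and these letters are not in the windows of Cldn5 and Flt4. On either strand, 13 of the 30 windows of endothelial genes (43.3%) held it, beside 29.5% of all 32851 windows of this length. The letters ACAAT or ATTGT, a core pattern of SOX factors, were in 7 of the 30 windows (23.3%), beside 27.7% of all. A match of letters is a description and not a binding site.

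The targeted gene was checked first. Cavin-3 had a log2 intensity of 6.79, 6.78 and 7.12 in the KO arrays, against 10.05, 10.90 and 10.45 in the WT arrays, and with 1 unnamed probe set it made up the 2 called of 34760 probe sets (0.00575%) past an adjusted p of 0.05 from limma. Each of 6 adipocyte markers, such as Adipoq and Plin1, exceeded the median signal of all 6 arrays, as did 10591 of all 19937 genes. The 6 mesothelium and 6 fibroblast markers did so too, and this count does not by itself name the tissue. The list means of the adipocyte markers were 11.90 to 12.12, beside 6.55 to 6.56 for all genes. The arrays of 1 genotype were not alike. Xist, the RNA of the inactive X chromosome, was at 11.34 in KO replicate 3 and 11.15 in WT replicate 2, but no higher than 6.30 elsewhere, and Uty, a Y-linked gene, was low on the same pair, although the methods describe male mice. The labels give no sex, and values without this pair of arrays are given beside results that it moves.

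No endothelial gene differed between KO and WT beyond the spread of the mice. In the limma fit over all probe sets 0 of the 39 reached an adjusted p under 0.05 (adjusted p = 1.0 for each), as against 0.00575% of all probe sets, and the methods' t-test called 0 of them as well. None had an unadjusted p under 0.05 in either test, beside 0.838% of all genes with limma and 1.74% with the t-test. Over all probe sets the share with limma was 1.95%. Mean differences were small, between 0.868-fold (Cldn5) and 1.22-fold (Emcn) of the WT level. For all 39, the range within KO or within WT was wider than the difference between the genotypes. This held for 19587 of all 19937 genes. The 95% interval of the difference stayed within 1.5-fold to either side for 31 genes and within 2-fold for 38. Of all 19937 genes, 16697 and 18868 stayed within these limits. The interval of Sox7, the exception to 2-fold, ran from 0.490-fold to 1.72-fold.

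**Figure D1:**
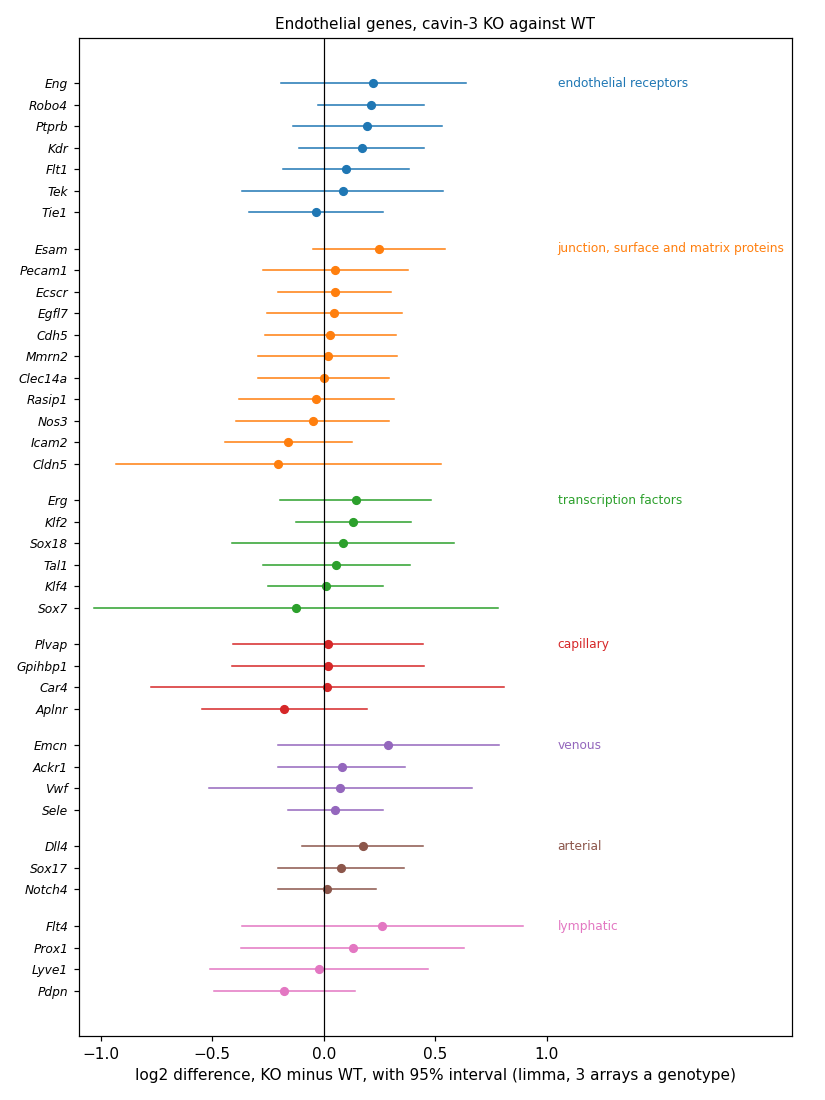
Log2 difference (KO minus WT) of the 39 measured endothelial genes, grouped by role, with a point for the limma estimate and a line for its 95% interval (3 arrays per genotype). Every interval crosses 0, and the points lie between -0.20 for Cldn5 and 0.29 for Emcn.

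Of the 39 genes, 29 had a higher mean in KO and 10 a lower one, with a median log2 difference of 0.05, while 50.3% of all genes were higher and their median was 0.00085. This count rested on WT replicate 2. Without that array 12 of the 39 were higher (median -0.03), without WT replicate 3 the number was 34 (median 0.14), and with limma's array weights, which count noisy arrays less, it was 14 (median -0.04). Without both arrays of high Xist signal, 13 of the 39 were higher (median -0.05). Within that pair alone, KO replicate 3 exceeded WT replicate 2 for 33 genes (median 0.24).

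The receptors through which endothelial cells read growth and guidance signals had a median of 0.17, with 6 of 7 genes higher in KO. The median was 0.085 without WT replicate 2 and 0.031 without both arrays of high Xist signal (4 of 7 higher in each), and 0.043 with array weights. The largest difference was that of Eng (endoglin), a co-receptor for BMP and TGF-beta ligands. Its log2 intensity was 10.31, 10.17 and 10.51 in KO, against 9.97, 9.91 and 10.44 in WT. WT replicate 3 lay among the KO arrays, and Eng was at 1.17-fold in KO (95% interval 0.875 to 1.56). Its log2 difference of 0.22 ranged between 0.12 (WT replicate 2 left out) and 0.39 (WT replicate 3 left out), and was 0.031 without both arrays of high Xist signal. Robo4, a roundabout receptor that steadies vessels, had 8.96, 8.93 and 8.89 in KO, against 8.57, 8.73 and 8.84 in WT. Its KO and WT arrays did not overlap, by 0.050 at the closest, and it was at 1.16-fold (0.982 to 1.36, unadjusted p = 0.0728 from limma).

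Kdr, the main VEGF receptor of endothelium, had 9.55, 9.36 and 9.61 in KO, against 9.16, 9.42 and 9.42 in WT. The groups overlapped through KO replicate 2, and Kdr was at 1.13-fold (0.926 to 1.37). Tek, the receptor of the angiopoietins, was at 9.14, 8.97 and 9.57 in KO and 9.14, 8.93 and 9.35 in WT, with replicate 3 the highest in both genotypes. Its partner Tie1 was at 0.976-fold, and Flt1, a VEGF receptor that also acts as a decoy, at 1.07-fold. Ptprb, the phosphatase that restrains Tek signalling, was at 1.15-fold (0.909 to 1.44). Its arrays spread over 0.05 (SD) in KO and 0.25 in WT, and its log2 difference of 0.20 was 0.066 without both arrays of high Xist signal.

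Genes of junctions, surface and matrix proteins had a median of 0.02, with 6 of 11 higher in KO. This was 2 of 11 without WT replicate 2 (median -0.060), 1 of 11 without both arrays of high Xist signal (-0.088) and with array weights (-0.069), and 8 of 11 without WT replicate 3 (0.11). Esam, an adhesion molecule of endothelial tight junctions, had 9.67, 9.60 and 9.65 in KO, against 9.16, 9.43 and 9.58 in WT. It did not overlap between the genotypes, by 0.020 at the closest, and was at 1.19-fold (0.967 to 1.46, unadjusted p = 0.0866 from limma). Robo4 and Esam were thus the 2 of 39 genes (5.13%) whose arrays did not overlap, near the 4.61% of all genes. Without WT replicate 1 their log2 differences of 0.21 and 0.25 were both 0.14. Cdh5 (VE-cadherin), the adhesion molecule of endothelial cell contacts, was nearly level. Its values were 10.96, 10.89 and 10.98 in KO and 10.90, 10.72 and 11.13 in WT, a 1.02-fold level (0.832 to 1.25).

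Pecam1, another contact protein and a common marker of endothelium, had 9.77, 9.80 and 9.96 in KO and 9.79, 9.57 and 10.02 in WT (1.04-fold, 0.827 to 1.30). Nos3, the endothelial nitric oxide synthase that caveolin-1 binds, had 8.71, 8.40 and 8.67 in KO and 8.41, 8.79 and 8.73 in WT (0.966-fold, 0.760 to 1.23). Nos3 was the 1 gene of the 39 that was highest in WT replicate 2. Cldn5, the claudin of endothelial tight junctions, had 10.13, 9.91 and 9.34 in KO and 10.15, 9.44 and 10.40 in WT. It was low in KO replicate 3 and WT replicate 2 alike, with a 0.868-fold level (0.523 to 1.44). Its log2 difference of -0.20 turned to 0.022 without KO replicate 3. The leukocyte ligand Icam2 was at 0.895-fold, and Clec14a, its matrix ligand Mmrn2, Ecscr, the secreted Egfl7 and the lumen-forming Rasip1 lay between 0.977-fold and 1.03-fold.

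Of 6 transcription factors 5 were higher in KO, with a median of 0.07. The direction turned, with 2 of 6 higher, without WT replicate 2 (median -0.042), without both arrays of high Xist signal (-0.062) and with array weights (-0.056). Erg, an ETS factor that holds endothelial identity, had 8.17, 8.15 and 8.33 in KO and 7.85, 8.04 and 8.33 in WT. The highest arrays of each genotype were level, and Erg was at 1.10-fold (0.874 to 1.40). Its log2 difference of 0.14 was 0.033 without WT replicate 1 and 0.27 without WT replicate 3. Klf2, which blood flow induces, had 7.93, 8.17 and 8.02 in KO, against 8.04, 7.84 and 7.83 in WT (1.10-fold, 0.916 to 1.31), and the related Klf4 was at 1.01-fold. Tal1, a blood and endothelial factor, was at 1.04-fold. Sox18, a SOX factor of vessels, had 8.68, 8.52 and 8.60 in KO and 8.33, 8.23 and 8.99 in WT, with WT replicate 3 above and the other WT arrays below every KO array (1.06-fold, 0.750 to 1.498).

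**Figure D2:**
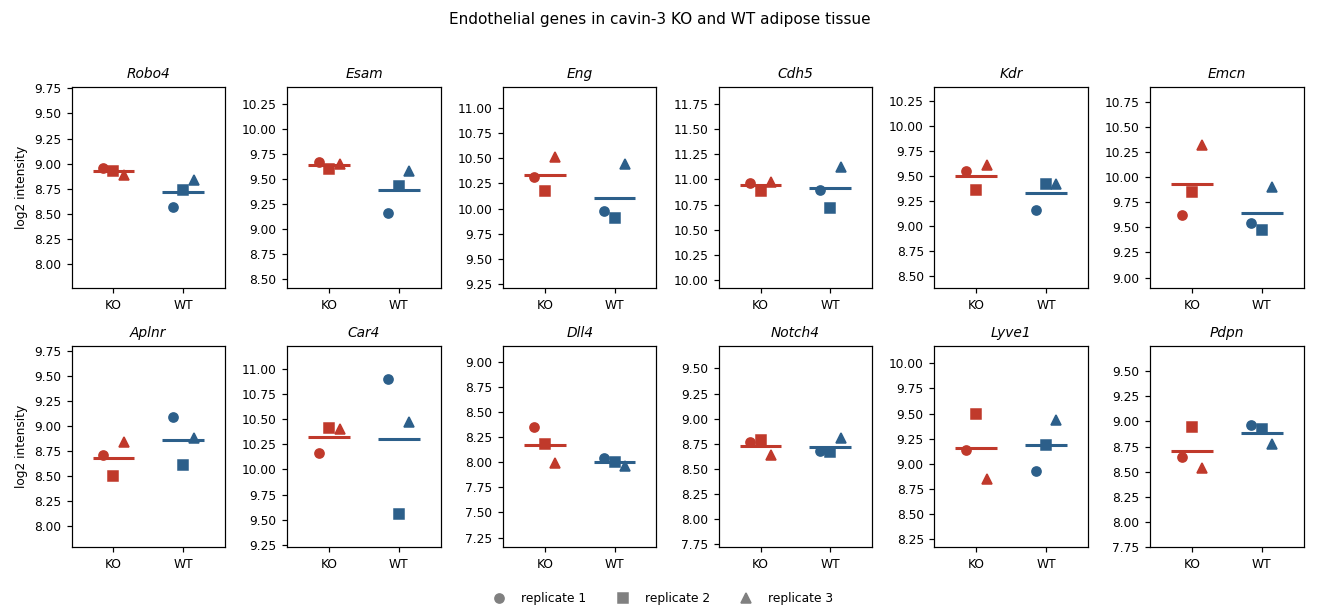
Log2 intensity of 12 endothelial genes on each array, with KO left of WT, a marker shape for the replicate number and a line at each mean; the axis of each gene has its own origin. Robo4 and Esam do not overlap, by 0.050 and 0.020, and the KO and WT arrays of the other 10 genes do.

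Capillary genes lay close to equal on average and spread widely within WT. Car4, a carbonic anhydrase of capillary surfaces, had 10.16, 10.41 and 10.40 in KO, against 10.90, 9.56 and 10.47 in WT, so that the WT arrays lay on both sides of all KO arrays (1.01-fold, 0.583 to 1.75). Gpihbp1, which carries lipoprotein lipase across capillaries to the blood side, had 9.76, 9.69 and 9.30 in KO and 9.62, 9.28 and 9.79 in WT (1.01-fold, 0.751 to 1.37). It was lowest on the pair of arrays with a high Xist signal. Plvap forms the diaphragms of caveolae and fenestrae. Its values were 8.14, 8.29 and 8.34 in KO and 8.17, 7.94 and 8.60 in WT (1.01-fold, 0.754 to 1.36).

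Aplnr, the apelin receptor, was the capillary gene with the largest difference, at 8.71, 8.50 and 8.84 in KO, against 9.09, 8.61 and 8.88 in WT (0.885-fold, 0.684 to 1.14). KO and WT overlapped through WT replicate 2. Without both arrays of high Xist signal its log2 difference was -0.38 (unadjusted p = 0.0488 and adjusted p = 1.0 from limma). In that fit 2.87% of all probe sets had an unadjusted p under 0.05. The median of the 4 capillary genes was 0.02 with all arrays, -0.22 without WT replicate 2 and -0.28 without that pair, and it was 0.11 without WT replicate 3.

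All 4 measured venous genes had a higher mean in KO, with a median of 0.08. Without both arrays of high Xist signal 2 of 4 were higher (median 0.0015), as with array weights (0.0064). Emcn (endomucin), a sialomucin of capillary and venous surfaces, had 9.63, 9.85 and 10.32 in KO, against 9.55, 9.48 and 9.90 in WT. KO replicate 3 stood above the rest and the other arrays overlapped, with a 1.22-fold level (0.868 to 1.72). Its log2 difference was 0.29 with all arrays, 0.098 without KO replicate 3 and 0.016 without both arrays of high Xist signal. Ackr1, the chemokine receptor of venules, had 7.03, 7.08 and 7.36 in KO and 6.97, 7.10 and 7.16 in WT (1.06-fold, 0.867 to 1.29), and turned to a log2 difference of -0.020 without KO replicate 3. Vwf, the clotting factor stored in endothelium and platelets, had 8.50, 8.50 and 8.20 in KO and 8.41, 7.81 and 8.76 in WT (1.053-fold, 0.700 to 1.58). Platelet genes, here Pf4, Itga2b, Gp9 and Ppbp, had list means of 7.25, 7.16 and 6.91 in KO and 7.33, 6.84 and 7.29 in WT, and their part in the Vwf values was not tested. Sele (E-selectin), which inflamed venules show, lay under the median signal on every array and was at 1.04-fold.

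All 3 arterial genes were higher in KO on average, with a median of 0.08. Without WT replicate 2, 1 of 3 was higher (median -0.010), and without both arrays of high Xist signal 2 of 3 were (0.038). Dll4, the Notch ligand of arteries and sprouting tips, had 8.35, 8.18 and 7.99 in KO, against 8.05, 7.998 and 7.96 in WT. The genotypes overlapped through KO replicate 3, and Dll4 was at 1.13-fold (0.935 to 1.36). Without that array its log2 difference was 0.27 (unadjusted p = 0.0426 and adjusted p = 1.0 from limma). In that fit 2.32% of all probe sets had an unadjusted p under 0.05. Sox17, an arterial SOX factor, had 7.54, 7.42 and 7.61 in KO and 7.52, 7.24 and 7.57 in WT (1.06-fold, 0.868 to 1.29). Notch4, a Notch receptor of endothelium, had 8.77, 8.79 and 8.64 in KO and 8.67, 8.67 and 8.81 in WT (1.01-fold, 0.867 to 1.18). Sox17 turned without WT replicate 2, to -0.022, and Notch4 without each of 4 arrays, to -0.013 at the lowest.

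Lymphatic genes were split, with 2 higher and 2 lower in KO and a median of 0.05. Without WT replicate 2, 0 of 4 were higher (median -0.054), and without both arrays of high Xist signal 1 of 4 was (-0.028). Flt4, the receptor of VEGF-C, had 7.04, 7.10 and 7.05 in KO, against 6.89, 6.22 and 7.30 in WT. WT replicate 2 stood far below, and the 1.20-fold level (0.775 to 1.86) turned to a log2 difference of -0.030 without it. Prox1, the master regulator of lymphatic fate, had 5.72, 5.49 and 5.46 in KO and 5.46, 5.01 and 5.81 in WT (1.09-fold, 0.773 to 1.55). Every Prox1 value lay under the median signal of its array, and WT replicate 2 was again the lowest.

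Pdpn (podoplanin), a mucin of lymphatic endothelium that fibroblasts and mesothelium also express, had 8.65, 8.95 and 8.53 in KO, against 8.96, 8.92 and 8.77 in WT (0.885-fold, 0.711 to 1.10). Without KO replicate 2, the 1 KO array among the WT values, its log2 difference was -0.29 (unadjusted p = 0.0464 and adjusted p = 1.0 from limma). In that fit 2.34% of all probe sets had an unadjusted p under 0.05. Lyve1, a hyaluronan receptor shared by lymphatic endothelium and tissue macrophages, had 9.14, 9.50 and 8.85 in KO and 8.93, 9.19 and 9.43 in WT (0.985-fold, 0.702 to 1.38). The 8 macrophage genes, among them Adgre1 and Mrc1, summed to intensities between 2480 and 3231 in KO mice and between 2593 and 3477 in WT mice, and their part in Lyve1 was not tested.

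**Figure D3:**
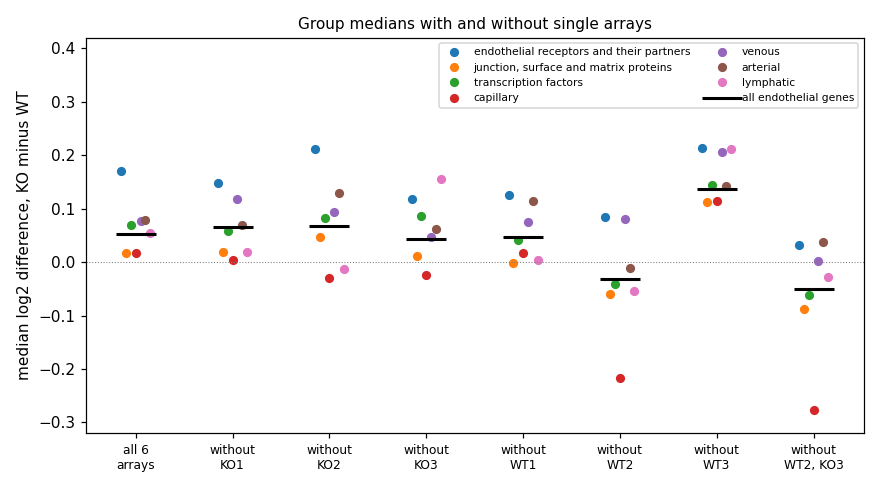
Median log2 difference (KO minus WT) of each role group with all 6 arrays, without each array in turn and without KO replicate 3 and WT replicate 2 together; black bars give the median over the 39 genes. The black bar lies at 0.05 with all arrays, at -0.03 without WT replicate 2 and at 0.14 without WT replicate 3.

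The capillary, venous, arterial and lymphatic medians, at 0.02, 0.08, 0.08 and 0.05, lay close to each other. Each was moved further than that by leaving out the 1 array that moved it most, though not by leaving out every array. Without WT replicate 3 they were 0.11, 0.21, 0.14 and 0.21. Without WT replicate 2 they were -0.22, 0.081, -0.010 and -0.054, with only the venous median above 0. Without both arrays of high Xist signal they were -0.28, 0.0015, 0.038 and -0.028, and with array weights -0.11, 0.0064, 0.012 and -0.029. No difference between these groups was tested.

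Many endothelial genes shared the arrays on which they were lowest and highest. WT replicate 2 was the lowest array for 23 of the 39 genes, beside 16.8% of all genes, and WT replicate 3 the highest for 20, beside 13.7% of all genes. The summed intensity of the 39 genes was 20657, 20165 and 20787 in KO, against 19929, 16956 and 22711 in WT. The KO arrays thus lay inside the WT range. Of the 39 genes 30 had a larger SD in WT, beside 52.8% of all genes, and the median SD was 0.11 in KO and 0.21 in WT. All 11 junction, surface and matrix genes and all 4 capillary genes were among them, but 1 of 4 venous genes and 1 of 3 arterial genes.

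Genes of other cells and tissues also varied between the arrays, not all in the same pattern. Mural cell genes were lowest on WT replicate 2 for 4 of 9 genes and highest on WT replicate 3 for 5. Macrophage genes were highest on WT replicate 3 for 6 of 8 and lowest on WT replicate 2 for none. They were lowest on KO replicate 1 for 6 of 8, beside 15.1% of all genes. Urothelium genes were highest on WT replicate 2 for all 5, beside 22.1% of all genes. Their list means were 6.04 to 6.90 in KO and 6.997, 8.58 and 6.05 in WT. Skeletal muscle genes had list means of 5.97, 6.52 and 8.95 in KO and 6.91, 8.87 and 5.69 in WT. Adipocyte genes were lowest on WT replicate 1 for 4 of 6, beside 25.2% of all genes. The part of these cells in the endothelial values was not tested.

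**Figure D4:**
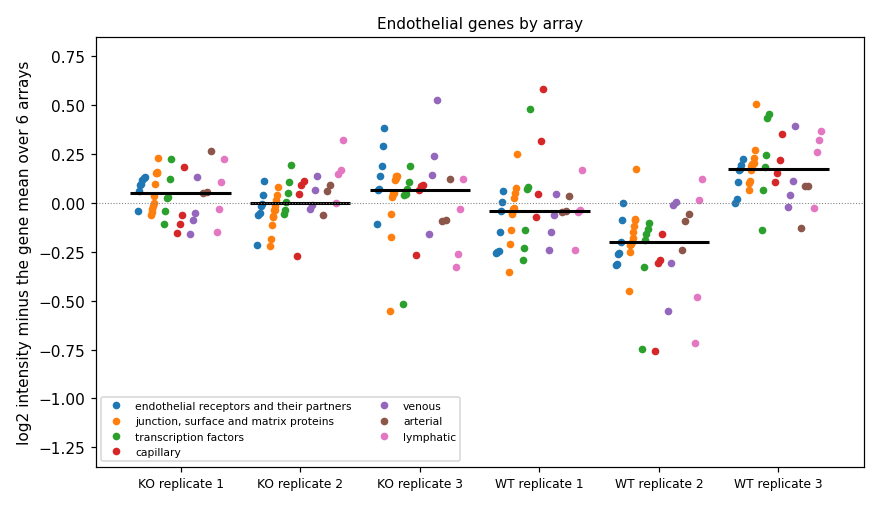
Log2 intensity of each of the 39 endothelial genes on each array, less the mean of that gene over the 6 arrays, coloured by role group, with a black line at the median. The median lies at -0.20 in WT replicate 2 and 0.17 in WT replicate 3, and between -0.043 and 0.068 on the other arrays.

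A few endothelial genes followed the pair of arrays with a high Xist signal. On KO replicate 3 and WT replicate 2 both, 7 of the 39 genes (17.9%, beside 9.67% of all genes) lay below all other arrays, and 1 gene, Sele, lay above them (beside 16.6% of all genes). The widest gap was in Sox7, a SOX factor of vessels, which had 8.35, 8.23 and 7.61 in KO and 8.61, 7.38 and 8.58 in WT. Its mean on the pair less that on the other 4 arrays was -0.95. For Cldn5 this difference was -0.76, for Vwf -0.54 and for Gpihbp1 -0.42. Those of Rasip1, Tie1 and Notch4 lay between -0.29 and -0.11. Within the pair, Sox7 had a log2 difference of 0.23 (KO replicate 3 minus WT replicate 2), and over the other arrays one of -0.30 (KO minus WT). Of the skeletal muscle genes, 6 of 6 lay above the other arrays on this pair, and the part of this in the endothelial values was not tested.

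Further genes of these pathways, taken from lists of 38 measured genes, passed no test either: with limma on all arrays 0 had an adjusted or an unadjusted p under 0.05. Of 11 ligands 10 were higher in KO (median 0.12), with the largest difference in Gdf2 (BMP9), a ligand of the endoglin complex made mainly in liver, which lay under the median signal at 4.85, 4.47 and 4.84 in KO and 4.38, 4.31 and 4.71 in WT. Of 8 other arterial genes 6 were higher, led by the connexin gene Gja4 at 7.87, 7.47 and 7.35 in KO, against 6.97, 7.03 and 7.73 in WT (1.25-fold, 0.834 to 1.87). Of 5 other venous genes 4 were higher, with Vcam1, an adhesion molecule for leukocytes, at 1.09-fold. Of 8 further genes of capillaries and fat endothelium 5 were higher, with the homeobox factor Meox2 at 1.20-fold (0.914 to 1.58). Its log2 difference of 0.27 was 0.049 without both arrays of high Xist signal. Without that pair, 4 of the 8 arterial, 1 of the 5 venous and 4 of the 8 further genes were higher. Their medians were then -0.033, -0.062 and -0.0045, while 8 of the 11 ligands stayed higher (median 0.11). In alternative limma fits, Meox2 had an unadjusted p of 0.0420 with the replicate number as a block, and Gja4 one of 0.0216 without WT replicate 3 (log2 difference 0.57). In these fits 2.01% and 2.67% of all probe sets had an unadjusted p under 0.05. Neither gene passed an adjusted p of 0.05 in any fit.

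Of the lymphatic genes outside the 40, 4 of 6 were lowest on WT replicate 2, as were 4 of 5 other venous genes. Mmrn1, a multimerin of lymphatic endothelium, had 7.23, 7.34 and 6.88 in KO, against 7.07, 4.99 and 7.55 in WT. WT replicate 2 stood far below every other array. Reln, which lymphatic endothelium secretes, had 7.08, 7.04 and 6.84 in KO, against 6.94, 5.93 and 7.23 in WT. Without that array, their log2 differences of 0.61 and 0.29 became -0.16 and -0.098. Of the 6 other lymphatic genes 3 were higher and 3 lower in KO, and 1 of 6 was higher without both arrays of high Xist signal (median -0.038).

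**Figure D5:**
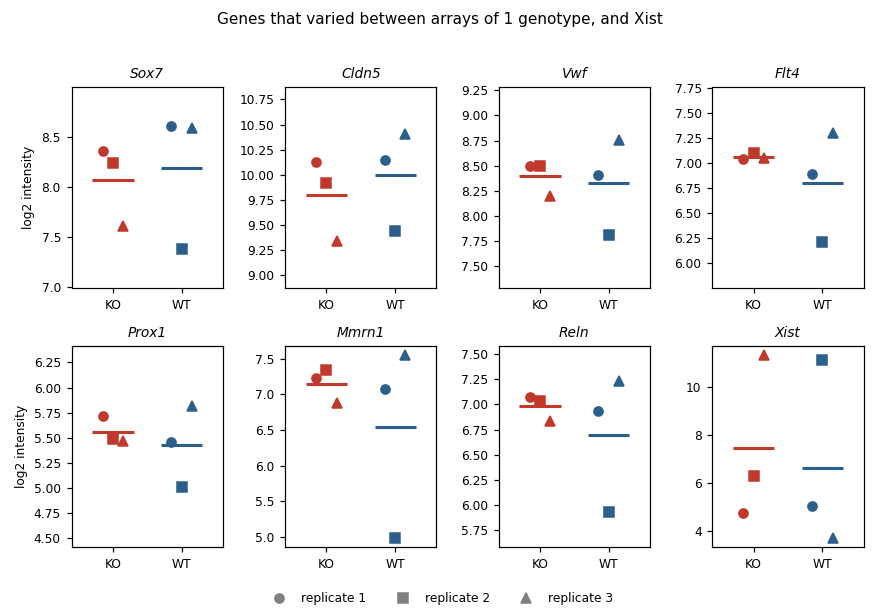
Log2 intensity of 5 endothelial members, of the lymphatic genes Mmrn1 and Reln and of Xist on each array, with KO left of WT, a marker shape for the replicate number and a line at each mean; each axis has its own range. Sox7, Cldn5 and Vwf are lowest on the arrays where Xist is high (KO replicate 3 and WT replicate 2), and Flt4, Prox1, Mmrn1 and Reln are lowest on WT replicate 2.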

How the data were processed

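RNA of adipose tissue from 3 cavin-3 KO and 3 WT mice was hybridised to 6 Affymetrix arrays. The authors deposited linear intensity values, 1 per probe set and array, computed with GenePattern modules, and RMA is named in the submitters' notes, with no version. RMA corrects background and sets all arrays to 1 distribution, which narrows differences between arrays. Log2 of the deposited intensities was fitted with limma (version 3.58.1, functions lmFit and eBayes, under R 4.3.3) on genotype alone, and p-values were adjusted by Benjamini-Hochberg over all 34760 probe sets. Genes were named from the 21640 probe sets annotated with 1 symbol. Folds were taken back from log2 differences. The number of arrays limits the precision, and the median standard error for the 39 genes was 0.14 (log2).

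The members, role groups, lists and alternatives were chosen with earlier results of these data known. Values on all arrays are given for members that did not overlap between genotypes and, in each role group, for the 2 with the largest differences and the 1 with the highest signal (19 genes), and for 8 others, Reln and the marker genes named, chosen after their values were seen. In the other vessel lists the gene with the largest difference is named. The alternatives were the methods' t-test, a replicate block, a filter on dim probe sets, quantile normalization, median centring, array weights, the mean over probe sets, a block for the arrays of high Xist signal, and leaving out single arrays or that pair. The procedure was tested on simulated data.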

Additional observations from a re-analysis of the deposited data

How the results depend on the processing

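None of the 39 endothelial genes passed an adjusted p of 0.05 under any of the 15 alternatives. The number with an unadjusted p under 0.05 was 0 with all arrays, beside 1.95% of all probe sets in the main fit. Without single arrays it was 0 to 5. The 5 without WT replicate 3 were all higher in KO (Eng, Esam, Ptprb, Robo4 and Sox18, beside 2.67% of all probe sets in that fit). Without both arrays of high Xist signal the number was 2 (Sox7 and Aplnr, both lower in KO, beside 2.87%). Over all probe sets, the 2 calls became 0 with the methods' t-test, 0 without that pair and 1 to 2 without single arrays. The fit on the mean over probe sets had 1 call. It tested the 19937 named genes and so left out the unnamed probe set of the main fit. The median of the 39 differences was 0.24 within that pair, a setting added after the data had been seen, and -0.03 to 0.14 without single arrays. With the replicate number as a block, limma called 0 probe sets and 0 endothelial genes. The median of 0.05 could not move in that fit, since each number holds 1 KO and 1 WT array. Arrays of the same number did not deviate together (correlations of deviations from the group means across probe sets of -0.15, -0.37 and -0.095), while KO replicate 2 did with WT replicate 1 (0.52), KO replicate 3 with WT replicate 2 (0.48) and KO replicate 1 with WT replicate 3 (0.37), so the numbers were not taken to pair the mice.

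Of the 33 genes followed, 13 kept their direction under every alternative. The others turned at values that no test called. Several alternatives could not turn a direction. The methods' t-test, both blocks and the mean over probe sets (1 per gene here) leave each difference as it was, and the filter on dim probe sets only drops rows. Without single arrays, log2 differences ranged from -0.087 to 0.21 for Tek, -0.060 to 0.17 for Pecam1, -0.071 to 0.13 for Cdh5, -0.48 to 0.022 for Cldn5, -0.17 to 0.047 for Nos3, -0.53 to 0.10 for Sox7, -0.058 to 0.32 for Sox18, -0.36 to 0.31 for Car4, -0.12 to 0.16 for Gpihbp1, -0.13 to 0.20 for Plvap, -0.020 to 0.14 for Ackr1, -0.18 to 0.29 for Vwf, -0.022 to 0.14 for Sox17, -0.013 to 0.063 for Notch4, -0.19 to 0.14 for Lyve1, -0.078 to 0.32 for Prox1, -0.030 to 0.51 for Flt4, -0.038 to 0.25 for Vcam1, -0.16 to 1.12 for Mmrn1 and -0.098 to 0.55 for Reln. With array weights they were -0.081 for Tek, -0.069 for Pecam1, -0.064 for Cdh5, -0.11 for Sox18, -0.058 for Car4, -0.0016 for Gpihbp1, -0.15 for Plvap, -0.0070 for Ackr1, -0.048 for Vwf and -8.4e-05 for Notch4. Without both arrays of high Xist signal they were -0.19 for Tek, -0.12 for Pecam1, -0.088 for Cdh5, -0.057 for Sox18, -0.40 for Car4, -0.17 for Plvap, -0.0066 for Ackr1, -0.084 for Vwf, -0.062 for Sox17, 0.14 for Lyve1, -0.031 for Prox1, -0.025 for Flt4, -0.062 for Vcam1, -0.025 for Mmrn1 and -0.026 for Reln. The cause was not tested. With 3 mice per genotype, the 95% interval reached past 1.5-fold for the 39 genes less the 31 given above. The labels name no array batch, so none was tested.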
